A study of Mus musculus with 30 samples.

Results

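Ovary libraries with high Cyp19a1, the gene of aromatase, were compared with ovary libraries with low Cyp19a1. The members were chosen by their measured Cyp19a1 and Ovgp1 values: among libraries with Ovgp1 at or below 5000 normalized counts, those with Cyp19a1 at or above 80 were called high and those with Cyp19a1 at or below 45 were called low. Ovgp1 encodes the main glycoprotein secreted by the oviduct, so a high level shows oviduct tissue in the sample. Of 30 libraries, 23 lay at or below the Ovgp1 limit, and 15 of these fell into a class: 6 high, from 6 mice, and 9 low, from 7 mice. Another 8 libraries lay between the Cyp19a1 limits and are called middle, and 7 were above the Ovgp1 limit and were left out. The labels give no estrous stage, so the classes stand for a transcript level and not for a stage of the cycle.

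The libraries came from the left and right ovaries of 15 C57BL/6 females. DSS mice (7) drank water with 3% dextran sulfate sodium, which injures the colon lining, for 7 days while sexually immature, and control mice (8) were their untreated littermates. Ovaries were taken after sexual maturity, at an age the labels do not give. Mice are named by treatment and number, as in control_10.6. The high class held 1 DSS right ovary and 5 control ovaries, of which 4 were left and 1 was right. The low class held 4 DSS ovaries (2 left and 2 right) and 5 control ovaries (2 left and 3 right). The recovered reads per library were between 3928514 and 4789595 in the high class and between 3095386 and 5931590 in the low class, and 18633 to 20250 genes were above 0 per library in both together.

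In a growing follicle, theca cells outside the basement membrane take up cholesterol and, under luteinizing hormone (LH), make androgens with the enzyme of Cyp17a1. Granulosa cells inside it respond to follicle-stimulating hormone (FSH) by raising aromatase, and they turn those androgens into estradiol. The same cells make the inhibins and activins, dimers of the subunits encoded by Inha, Inhba and Inhbb. Inhibin holds back FSH release from the pituitary, while activin raises it. Aromatase transcripts are highest in large follicles shortly before ovulation and drop after the LH surge. Because whole ovaries were measured, fewer cells of a type and less RNA per cell cannot be told apart.

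Cyp19a1 itself chose the classes, so its values are a description. It was at 83.8, 124 and 171 normalized counts (lowest, median and highest) in the high class and at 19.3, 34.5 and 44.5 in the low class. Just inside the upper limit was the left ovary of control_13.5 at 83.8, and just outside it the left ovary of DSS_13.2 at 75.0. Just inside the lower limit was the left ovary of DSS_10.3 at 44.5, and just outside it the left ovary of control_16.9 at 46.4. These levels rest on 77 to 170 reads per high library and 18 to 44 reads per low library. The gene lies on chr9:54165637-54268110 (minus strand, GRCm38.p5, position as deposited). RefSeq gives 3 start sites for it, of which the one farthest upstream lies just beyond the deposited span.

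Upstream sequences of 250 bases are shown for Cyp19a1, at the start site farthest downstream, for Inhba, the gene with the smallest p against the classes, and for Gja1, a gap junction gene that differed between the ovaries of a mouse in the direction of Cyp19a1 in every pair. All are from RefSeq's windows on GRCm38.p6, in the direction of transcription, at chr9:54193744-54193993 (minus strand), chr13:16011601-16011850 (plus strand) and chr10:56377050-56377299 (plus strand).
Cyp19a1: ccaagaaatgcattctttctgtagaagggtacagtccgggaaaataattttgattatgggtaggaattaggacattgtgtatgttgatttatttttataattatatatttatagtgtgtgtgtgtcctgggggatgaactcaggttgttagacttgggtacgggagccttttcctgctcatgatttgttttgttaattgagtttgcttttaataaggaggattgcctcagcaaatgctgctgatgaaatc
Inhba: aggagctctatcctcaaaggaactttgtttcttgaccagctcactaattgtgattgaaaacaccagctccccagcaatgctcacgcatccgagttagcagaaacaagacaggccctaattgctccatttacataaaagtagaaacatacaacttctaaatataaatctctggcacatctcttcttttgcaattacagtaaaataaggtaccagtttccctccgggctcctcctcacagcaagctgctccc
Gja1: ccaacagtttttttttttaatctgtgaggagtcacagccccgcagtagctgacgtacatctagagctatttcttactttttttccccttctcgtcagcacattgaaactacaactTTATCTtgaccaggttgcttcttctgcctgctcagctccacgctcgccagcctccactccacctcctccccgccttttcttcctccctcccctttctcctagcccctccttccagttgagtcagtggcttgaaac
Capitals mark the reverse complement of the GATA motif AGATAA. Windows of 300 bases, the 250 before a start site and the 50 after it, were searched on both strands for that motif and for the cyclic AMP response element TGACGTCA, the NR5A half-site CAAGGTCA, the palindromic estrogen response element and the forkhead motif GTAAACA. Cyp19a1 and 6 genes of the follicle lists were looked up, and 5 of these 7 genes had a window. The GATA match of Gja1 was the only match among them. Of all 32851 windows in RefSeq's table, 3672 held the GATA motif, 1.79% the cyclic AMP response element, 1.56% the NR5A half-site, 3.65% the forkhead motif and 0.07% the estrogen response element.

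The first question was which other transcripts went with Cyp19a1 between the classes. No gene passed adjustment: with limma and Benjamini-Hochberg adjustment over 14430 genes, 0 genes (0.0%) had an adjusted p under 0.05 and the smallest was 0.107. Without adjustment, 1069 genes (7.41%) had a p under 0.05, where 722 would do so with no difference at all, and of these 527 (3.65%) were higher and 542 (3.76%) lower in the high class. edgeR's quasi-likelihood test on the recovered reads called 0 genes (1017 at an unadjusted p under 0.05, or 7.05%). DESeq2 on the same reads called 9 (0.0624%), with 929 (6.44%) at an unadjusted p under 0.05. It gave no adjusted p to some genes, Tle4 and Fshr among them, so it adjusted over fewer genes than limma and edgeR did. The classes did not overlap for 13 genes (0.0901%). All differences are log2(normalized count + 1), high minus low, with the mouse as a block, and the median over all genes was 0.006, with 51.4% of genes above 0.

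The gene with the smallest p was Inhba (chr13:16011851-16027511, plus strand), the βA subunit shared by activin A and inhibin A. It was at 652, 837 and 947 normalized counts (lowest, median and highest) in the 6 high libraries and at 312, 340 and 728 in the 9 low libraries. All high libraries were above the low median, 4 were above every low library, and 8 of the 9 low libraries were below every high one. The log2 difference was 0.99 (SE 0.17), with an adjusted p of 0.107 in limma and 0.429 in edgeR, and DESeq2 called it at an adjusted p of 0.000869. The low libraries that came nearest to the high class were the left ovary of control_11.4 at 728, the left ovary of DSS_10.3 at 619 and the right ovary of control_11.4 at 567. With 1 mouse left out at a time, the log2 difference of Inhba lay between 0.89 and 1.15 and its limma adjusted p between 0.00115 and 0.584. It passed without control_11.4 (adjusted p = 0.00115) and without DSS_10.3 (0.025), and was weakest without control_10.6 (log2 0.89, adjusted p = 0.584).

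The other inhibin subunits were also higher in the high class without passing. Inha (chr1:75507077-75510666), the α subunit that makes a dimer an inhibin, was at 10857, 14809 and 15504 in the high class and 8466, 11294 and 15460 in the low class. Inhbb, the βB subunit, was at 2895, 4294 and 4982 against 1951, 2776 and 5982. The classes overlapped for both genes, and the highest low value of each was in the left ovary of control_11.4. The log2 differences were 0.38 for Inha (SE 0.11, adjusted p = 0.473) and 0.49 for Inhbb (SE 0.17, adjusted p = 0.553), in limma. Follistatin, which binds and blocks activin, showed no such lead: Fst had a median of 109 in the high class and 116 in the low class, and a log2 difference of -0.09 (SE 0.12). Of 13 genes tested from the list of inhibin, activin and follistatin genes, which also holds their receptors and Smads, 9 were higher and 4 lower, none passed adjustment, 3 had an unadjusted p under 0.05, all higher (3.65% of all genes), and the median log2 difference was 0.06 beside 0.006 over all genes. The 3 genes are the 3 inhibin subunits. This list and those below were chosen with earlier results of these data known, so counts over them are descriptions and no independent support.

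**Figure D1:**
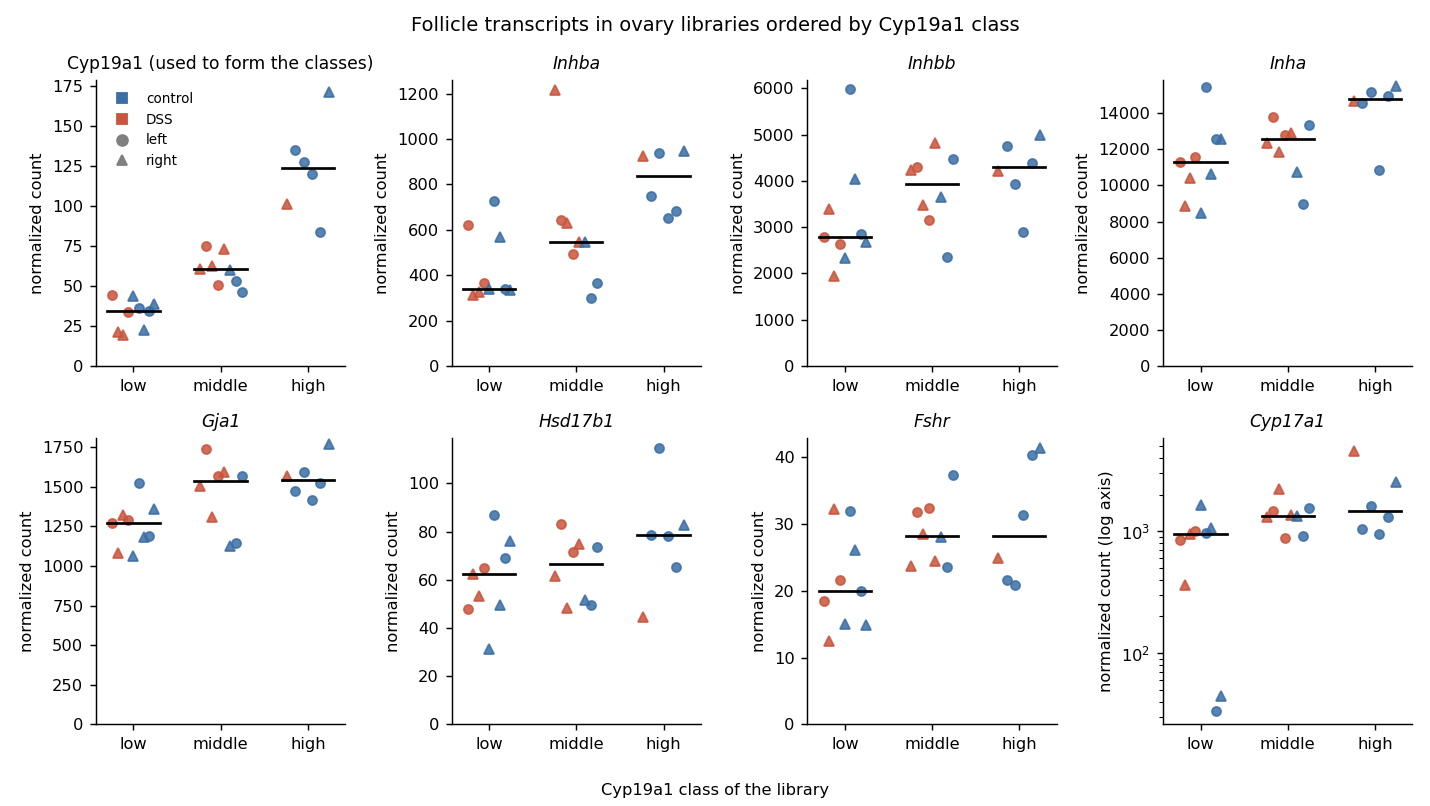
Normalized counts of Cyp19a1 and 7 follicle genes (vertical axes, from 0 except for the log axis of Cyp17a1) in the low, middle and high Cyp19a1 classes (horizontal axes). Each point is 1 library, coloured by treatment and shaped by side, and black bars are medians; Inhba is at a median of 340, 545 and 837 in the low, middle and high libraries, and the classes overlap for every gene except Cyp19a1, which formed them.

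Of the genes by which granulosa cells answer FSH and make estrogen, more were higher than lower in the high class, none past adjustment. Fshr, the FSH receptor, was at 20.8, 28.1 and 41.3 in the high class and 12.5, 19.9 and 32.1 in the low class, and all 6 high libraries were above the low median. Its log2 difference was 0.50 (SE 0.22, adjusted p = 0.639), on only 177 reads summed over the high libraries. Hsd17b1, the enzyme that turns estrone into the stronger estradiol, was at 44.7, 78.4 and 115 against 31.1, 62.6 and 86.7, with a log2 difference of 0.43 (SE 0.21, adjusted p = 0.669). The Hsd17b1 value rests in part on mouse control_10.6, whose left ovary had the highest level in the high class and whose right ovary had the lowest in the low class, and without that mouse it was 0.14 (SE 0.18, adjusted p = 0.989).

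Nr5a1, the orphan receptor SF-1 that drives steroid enzyme genes, was at 549, 655 and 715 in the high class and 406, 479 and 669 in the low class (log2 0.32, SE 0.10, adjusted p = 0.482). Nr5a2, the related receptor LRH-1, was not higher, with medians of 1063 and 1139 and a log2 difference of -0.14 (SE 0.12). Prkar2b, a regulatory subunit of the cyclic AMP-dependent kinase that FSH signals through, had a log2 difference of 0.31 (SE 0.10, adjusted p = 0.53), and Gata4, a granulosa transcription factor, 0.22 (SE 0.09, adjusted p = 0.608). Lhcgr, the LH receptor, which granulosa cells gain late, theca cells carry throughout and corpora lutea hold in quantity, was at 992, 1489 and 2554 in the high class and 371, 2073 and 2424 in the low class, a log2 difference of 0.01 (SE 0.35). For this gene the median was lower in the high class while the fitted difference was near 0, and without mouse control_15.3 the difference was -0.46 (SE 0.17, adjusted p = 0.447).

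Of 23 genes tested from the list of granulosa estrogen synthesis and FSH response, 15 were higher and 8 lower, with a median log2 difference of 0.10. Their sums overlapped, with medians of 27810 in the high class and 29820 in the low class. Furthest below 0 were Adcyap1r1 (log2 -0.54, SE 0.28) and Runx2 (-0.51, SE 0.27). At an unadjusted p under 0.05 in limma stood 5 genes, all higher (3.65% of all genes): Nr5a1, Prkar2b, Gata4, Fshr and Hsd17b1. Since the list was chosen with earlier results of these data known, that count is a description. Ccnd2, a cyclin that FSH raises in granulosa cells, was at a median of 1232 in the high class and 1284 in the low class, and Esr2, the granulosa estrogen receptor, at 344 and 312. Their log2 differences were 0.00 (SE 0.09) and 0.15 (SE 0.16), well inside the spread between libraries.

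Genes of granulosa identity and of small growing follicles gave 13 higher and 7 lower among 20 tested, with a median of 0.08. Gja1, connexin 43, which joins granulosa cells by gap junctions, was at 1420, 1544 and 1772 in the high class and 1061, 1271 and 1522 in the low class, and 8 of 9 low libraries were below every high one. Its log2 difference was 0.33 (SE 0.08), with an adjusted p of 0.309 in limma and 0.0232 in DESeq2. Bmp2, a growth factor of the BMP family, went the other way, at medians of 127 and 162 (log2 -0.40, SE 0.13, adjusted p = 0.502). The transcription factor of granulosa fate, Foxl2, was at medians of 160 and 141 (log2 0.11, SE 0.11), which differ by less than the spread. Anti-Müllerian hormone, made by small growing follicles, hardly differed, with Amh at medians of 1511 and 1448 (log2 -0.06, SE 0.15), and so did its receptor Amhr2, at 110 and 100.4 (log2 0.10, SE 0.14).

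In the theca list, 7 of 13 genes were higher and 6 lower, with a median of 0.01 and 2 in each direction at an unadjusted p under 0.05 (3.65% of all genes higher and 3.76% lower). Cyp17a1, whose enzyme makes the androgens that aromatase uses, had the largest fitted difference of the named genes, 1.74 (SE 0.66, adjusted p = 0.597). It was at 955, 1465 and 4533 in the high class and 33.1, 946 and 1644 in the low class. Both ovaries of mouse control_15.3 were far below the rest, at 33.1 and 44.7, and without that mouse the log2 difference of Cyp17a1 was 0.90 (SE 0.31, adjusted p = 0.425). The earlier steps of steroid synthesis were near even: Star, the protein that brings cholesterol into mitochondria, had medians of 4506 and 5057 (log2 -0.11, SE 0.16), and Cyp11a1, which cleaves its side chain, 10066 and 9948 (log2 0.01, SE 0.15). Star overlaps Ash2l on the opposite strand, and the strand setting of the counting is not given in the sources used here, so its value is uncertain. Fdxr, which passes electrons to Cyp11a1, and Mgarp, a mitochondrial protein of steroid-making cells, had log2 differences of -0.29 (SE 0.13) and -0.24 (SE 0.11) at adjusted p of 0.649 and 0.656. Insl3, a peptide hormone of theca cells, was listed at 0 in all members, and it shares its locus with Jak3.

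Genes that the LH surge induces before ovulation leaned downward, with 6 of 18 higher and 12 lower and a median log2 difference of -0.12. At an unadjusted p under 0.05 were 2 of them, both lower (3.76% of all genes). Runx1, a transcription factor of ovulating follicles, was at 110, 136 and 158 in the high class and 135, 203 and 306 in the low class (log2 -0.52, SE 0.16, adjusted p = 0.501). Adamts1, a protease that opens the matrix at ovulation, was at 47.4, 74.5 and 97.5 against 55.6, 102 and 412 (log2 -0.83, SE 0.32, adjusted p = 0.597), and without mouse control_15.3 its log2 difference was -0.45 (SE 0.20, adjusted p = 0.55). Pgr, the progesterone receptor that LH switches on in granulosa cells, was at medians of 46.1 and 45.9 (log2 0.18, SE 0.28), and Ptgs2, the prostaglandin synthase of ovulation, had 0 reads in the high class and 4 in the low class in all and stayed below the filter on low values. In all, 10 of the 28 listed surge genes were below that filter.

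Among 22 corpus luteum genes, 14 were higher and 8 lower, with a median of 0.03, and at an unadjusted p under 0.05 were Inhbb, which this list shares with the inhibin list, Cd36 and, lower, Parm1 (3.65% of all genes higher and 3.76% lower). Akr1c18, which inactivates progesterone as the corpus luteum regresses, was at 35.8, 186 and 503 in the high class and 18.2, 101 and 248.8 in the low class, the classes overlapping over most of their range (log2 0.91, SE 0.56, adjusted p = 0.742), and it was between 0.54 and 0.57 without control_10.5, control_10.6 or control_11.4. Ptgfr, the receptor by which prostaglandin F2α starts that regression, had a log2 difference of 0.06 (SE 0.30), and Parm1 was lower in the high class at -0.45 (SE 0.18, adjusted p = 0.597). Cd36, a fatty acid transporter of luteal cells that fat cells express too, had a log2 difference of 0.43 (SE 0.20, adjusted p = 0.656). Srd5a1, the 5α-reductase, differed by -0.06 (SE 0.13), and Nsun2 overlaps it on the opposite strand.

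Oocyte genes were higher for 21 of 28 and lower for 7, with a median of 0.09 and 3 at an unadjusted p under 0.05, all higher (3.65% of all genes). Kit, the receptor on the oocyte for granulosa Kit ligand, had medians of 33.7 and 23.7 (log2 0.50, SE 0.19, adjusted p = 0.597), and Oas1d, an oocyte member of the oligoadenylate synthetase family, 91.2 and 68.5 (log2 0.41, SE 0.15, adjusted p = 0.597). The secreted oocyte factor Gdf9 was at medians of 321 and 283 (log2 0.24, SE 0.14; 0.15 without control_15.4), and the zona pellucida protein Zp3 at 138 and 112 (log2 0.09, SE 0.17). Cell cycle genes had the highest median of the follicle, oocyte and pathway lists, 0.18, with 24 of 30 higher, but their sums overlapped (10560 in the high class and 10770 in the low class at the median). Ccne1 and Ccne2, the cyclins of entry into DNA synthesis, had log2 differences of 0.82 (SE 0.34, on 82 and 66 reads in the high and low class) and 0.37 (SE 0.17), while Mki67, a marker of dividing cells, had 0.09 (SE 0.10). Ccne2 overlaps Ints8 on the other strand.

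The remaining pathway lists were close to even. For cholesterol synthesis and uptake, 13 of 25 genes were higher and 12 lower (median 0.01), with Sc5d, an enzyme of the late steps, at 0.35 (SE 0.17), or 0.16 without control_15.3. For sex steroid receptors, 8 of 17 were higher (median -0.02), and Esr1, the estrogen receptor of theca and stroma, was at a log2 difference of -0.19 (SE 0.09, adjusted p = 0.657) and Pgrmc2 at -0.18 (SE 0.09). For apoptosis genes of follicle atresia, 14 of 20 were higher (median 0.03), with the survival gene Bcl2l1 at 0.19 (SE 0.10). For vascular genes, 10 of 19 were higher (median 0.01). Angpt2, which loosens vessels, was at 139, 170 and 214 in the high class and 86.8, 114 and 151 in the low class (log2 0.55, SE 0.14, adjusted p = 0.402), with Mcph1 overlapping it on the opposite strand, and Apln, a peptide of growing vessels, was at -0.44 (SE 0.17, adjusted p = 0.597).

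**Figure D2:**
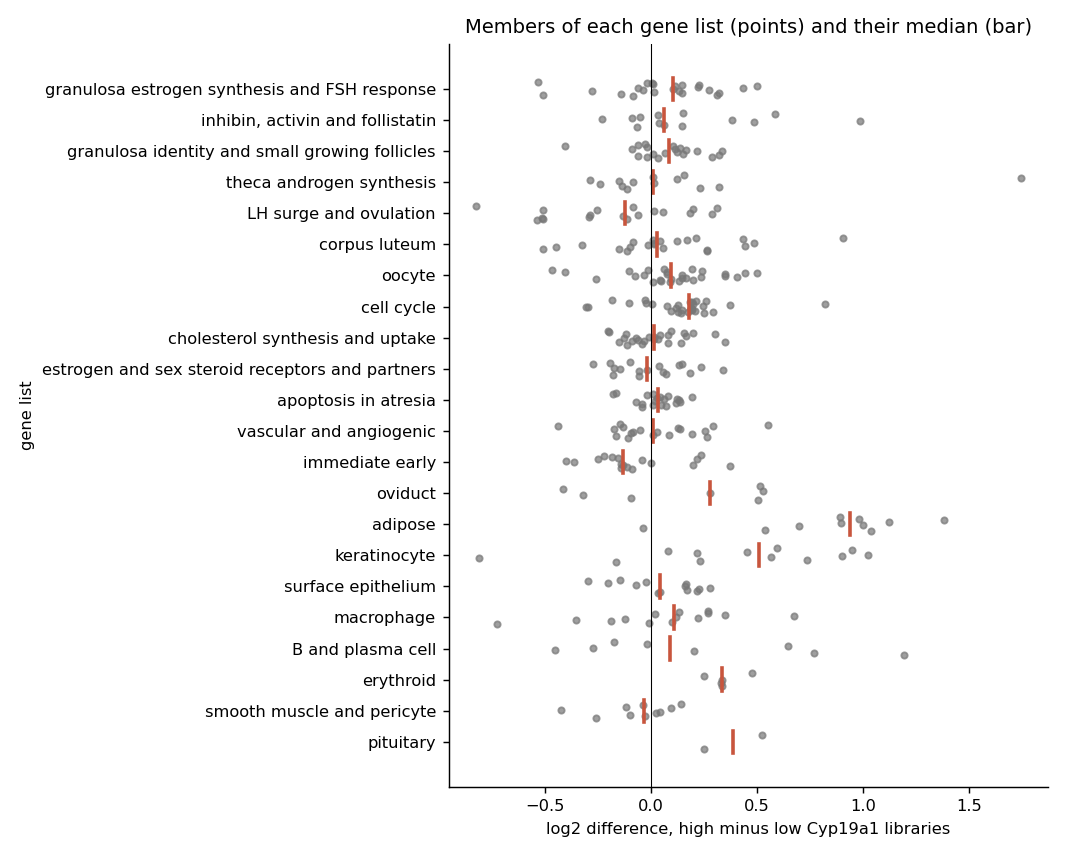
Log2 differences between the high and low Cyp19a1 classes (horizontal axis) for the tested members of each gene list (vertical axis). Each grey point is 1 gene and each red bar the list's median; the medians of the follicle lists lie between -0.12 and 0.10, the adipose list lies highest at 0.94, and no gene passed adjustment.

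Markers of other tissues and of further cell types, some of them found in the ovary itself, differed between libraries. The 12 fat cell genes summed to 238, 660 and 4213 in the high class and 211, 544 and 1228 in the low class, and 9 of the 10 tested were higher, with a median of 0.94. Keratinocyte genes summed to 77.5, 372 and 6576 against 69.8, 308 and 6875 (10 of 12 higher, median 0.51), and oviduct genes to 296, 456 and 847 against 228, 593 and 3304 (4 of 7 higher, median 0.28). The oviduct sum includes Ovgp1, at 155, 300 and 646 against 110, 429 and 3064, while the 7 tested genes leave it out. Since the rule used Ovgp1 to choose the libraries, that sum is a description only. The median differences were 0.04 for surface epithelium (8 of 13 higher), 0.11 for macrophages (9 of 14), 0.09 for B and plasma cells (4 of 8), 0.33 for red cells (5 of 5), -0.03 for smooth muscle (4 of 10) and 0.39 for pituitary hormones (2 of 2). Immediate early genes, which respond within minutes to handling as well as to LH, were lower for 12 of 17 (median -0.13), with Jun at -0.36 (SE 0.11) and Ier3 at -0.40 (SE 0.13), both at an adjusted p of 0.502. With Ovgp1 and the fat cell gene Adipoq as covariates, the log2 difference of Inhba was 1.02 (adjusted p = 0.386) and that of Gja1 0.30 (adjusted p = 0.647), while that of Cd36 was 0.21 in place of 0.43 and that of Akr1c18 was 0.43 in place of 0.91. The part of tissues other than oviduct and fat was not tested. The ovary's own markers Foxl2, Amh, Cyp17a1, Star, Gdf9 and Zp3 were above 0 in every member.

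After Inhba, the lowest p among the higher genes belonged to Slc38a5, Klhl31, Alas1 and Tle4, which are in none of the lists. Slc38a5, a transporter of glutamine and serine, was at 225, 309 and 375 in the high class and 121, 186 and 270 in the low class (log2 0.72, SE 0.15, adjusted p = 0.237). Alas1, the first enzyme of haem synthesis, was at 169, 284 and 487 against 107, 154 and 215 (log2 0.82, SE 0.17, adjusted p = 0.237), and Klhl31, a kelch-like protein, at 107, 128 and 166 against 67.0, 82.2 and 125 (log2 0.63, SE 0.13, adjusted p = 0.237). Tle4, a Groucho-family co-repressor, was at 42.6, 46.6 and 57.7 against 23.7, 29.2 and 39.8, with no overlap (log2 0.67, SE 0.14, adjusted p = 0.309). For each of these 4 genes all 6 high libraries were above the low median, and none passed in limma.

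Among genes with lower levels, Heg1, a receptor of endothelial junctions, was at 2042, 2244 and 3149 in the high class and 2886, 3401 and 4442 in the low class (log2 -0.52, SE 0.11, adjusted p = 0.237). Zfand5, a zinc finger protein that activates the proteasome, was at 522, 602 and 685 against 599, 793 and 880 (log2 -0.36, SE 0.09, adjusted p = 0.309), and Abca2, a lipid transporter, at 104, 130 and 139 against 135, 167 and 191 (log2 -0.39, SE 0.09, adjusted p = 0.309). Chchd10, a mitochondrial protein, was at 727, 827 and 855 against 866, 1193 and 1330, with no overlap (log2 -0.42, SE 0.10, adjusted p = 0.309), and Mmp11 and Gm867 overlap it on the opposite strand.

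The 9 genes that DESeq2 called were Inhba, Alas1, Slc38a5, Klhl31, Gja1 and Cbs, higher in the high class, and Heg1, Zfand5 and Sash1, lower. Cbs, which condenses homocysteine with serine, was at medians of 79.3 and 49.97 (log2 0.65, SE 0.15, adjusted p = 0.309 in limma), and Sash1, a scaffold of endothelial signalling, at 239 and 295 (log2 -0.34, SE 0.09, adjusted p = 0.385 in limma). The 13 genes with no overlap were Tle4, N4bp2l1, Rbbp7, Mphosph10, Crebzf, Pno1 and Rbm18 (0.0485% of all genes higher in this way) and Chchd10, Timp4, Zfp78, Pdcd6ip, Zfp775 and Il3ra (0.0416% lower in this way). Cbs, Sash1 and the non-overlapping genes other than Tle4 and Chchd10 were named after their values were seen. The difference furthest from 0 among the 13 was that of Timp4, an inhibitor of matrix proteases, at 2.02, 9.27 and 13.52 against 13.6, 20.2 and 37.1 (log2 -1.21, SE 0.30, adjusted p = 0.37), on 53 and 180 reads. Syn2 overlaps Timp4 on the opposite strand, so its value is uncertain. Likewise Txlng overlaps Rbbp7, Mrrf overlaps Rbm18 and Wdr92 overlaps Pno1. No gene of any list was among the 13.

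With Cyp19a1 as a continuous predictor over all 23 libraries at or below the Ovgp1 limit, the middle class included, 0 genes passed in limma (0.0%), and 1030 (7.14%) had an unadjusted p under 0.05. For each log2 unit of Cyp19a1, Inhba was higher by 0.50 (SE 0.10, adjusted p = 0.173), Gja1 by 0.17 (SE 0.04, adjusted p = 0.256), Inha by 0.19 (SE 0.05, adjusted p = 0.291) and Inhbb by 0.24 (SE 0.08, adjusted p = 0.519). The median of the middle libraries lay between the class medians for Inhba, at 545, and level with that of the high class for Gja1, at 1540. Single middle libraries ranged from 298 to 1215 for Inhba, beyond both classes, and from 1129 to 1737 for Gja1.

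Treatment and side were not balanced over the classes, so the leading genes were compared within each. In control mice alone (5 high and 5 low libraries), Inhba had a log2 difference of 0.88 (SE 0.19, adjusted p = 0.162), Gja1 0.33, Fshr 0.52, Hsd17b1 0.57, Inha 0.31 and Inhbb 0.33. With treatment and side as covariates, Inhba was at 0.96 (SE 0.18, adjusted p = 0.0603), and limma called 3 genes (0.0208%, with 1281, or 8.88%, at an unadjusted p under 0.05): Trp53inp2, Hmox1 and Mt1, all lower in the high class. In left ovaries (4 high and 4 low) the difference of Inhba was 0.62 (SE 0.21, limma adjusted p = 0.951), that of Inha 0.12 and that of Inhbb 0.23. In right ovaries (2 high and 5 low) these were 1.35 (SE 0.19, limma adjusted p = 0.055), 0.58 and 0.72. The difference between sides was not tested. DSS mice gave 1 high library and 4 low ones, so a fit in them compares that library, assumed to vary like the others, with the low ones and not the classes; it called 14 genes (0.097%), with 961 (6.66%) at an unadjusted p under 0.05.

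The second question was how far the level of Cyp19a1 is shared by both ovaries of a mouse. In 9 mice both ovaries were at or below the Ovgp1 limit, and these were taken without regard to Cyp19a1. Over these the left and right levels showed no detectable relation, with a Pearson r of 0.117 (exact permutation p = 0.759) and a Spearman rho of 0.05 (exact permutation p = 0.912), both two-sided. Without the 2 mice whose left ovary lay farthest from the median of the left ovaries, r was 0.253 (exact permutation p = 0.572). With treatment means removed r was 0.106 (exact permutation p = 0.784). Over all 15 mice r was 0.276 (permutation p = 0.332) and rho 0.214 (permutation p = 0.444). Over the 12 relations computed, the smallest Benjamini-Hochberg adjusted p was 0.995. The left ovary of control_10.6 was in the high class at 128 and its right ovary in the low class at 43.6, and control_15.4 had 53.0 on the left and 171 on the right. In contrast, both ovaries of control_11.4 (36.5 and 22.3) and of control_15.3 (34.5 and 38.6) were in the low class.

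**Figure D3:**
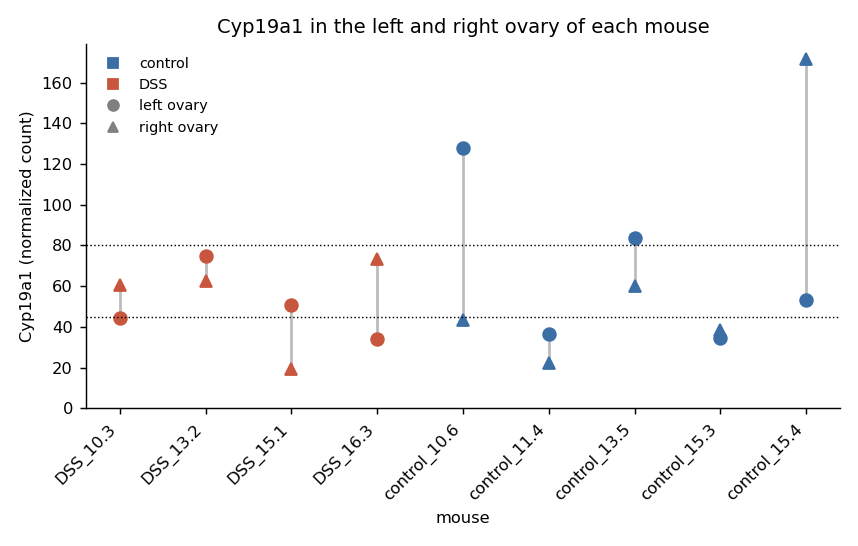
Cyp19a1 in normalized counts (vertical axis) in the left (circle) and right (triangle) ovary of the 9 mice with both ovaries at or below the Ovgp1 limit (horizontal axis), coloured by treatment. Grey lines join the ovaries of a mouse and dotted lines mark the class limits of 45 and 80; control_10.6 spans 128 to 43.6 and control_15.4 spans 53.0 to 171.

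Since both ovaries of a mouse meet the same circulating hormones, the genes were also compared within a mouse. The 13 genes compared in this way were chosen in view of the class comparison, and the 9 mice include 11 of its 15 libraries, so the values describe the same data from another side. In all 9 mice the ovary with more Cyp19a1 also had more Hsd17b1 and more Gja1. The same held in 8 of 9 mice for Inhba, Inha, Inhbb and Fshr, the exception each time being control_15.3, whose ovaries differed least in Cyp19a1. It held in 8 of 9 mice for Slc38a5 and in 7 of 9 for Nr5a1 and Alas1. Cyp17a1, Akr1c18, Klhl31 and Heg1 did so in 4 of 9. How many of all genes tested did so in as many mice was not counted. The counts are thus a description and do not set these 13 genes apart from the rest.

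In control_10.6, from left to right, Cyp19a1 went from 128 to 43.6, Inhba from 939 to 340.0, Inha from 15177 to 8466, Hsd17b1 from 115 to 31.1 and Gja1 from 1592 to 1061. In control_15.4 the right ovary was the higher one, with Inhba at 298 on the left and 947 on the right, Inhbb at 2355 and 4982, and Fshr at 23.6 and 41.3. In DSS_16.3, Inhbb was at 2636 on the left and 4822 on the right, with Cyp19a1 at 34.1 and 73.3. All 3 mice thus had more of the inhibin subunits on the side with more Cyp19a1.

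The left minus right log2 difference of each gene was then fitted on that of Cyp19a1 over the 9 mice, for all 14430 genes. None passed adjustment in limma (0.0%), with 1264 (8.76%) at an unadjusted p under 0.05. The slope was 0.81 for Inhba (SE 0.11, adjusted p = 0.0845), so an ovary with a Cyp19a1 level 1 log2 unit above its partner's was higher by that much in Inhba, 0.63 for Inhbb (SE 0.07, adjusted p = 0.0593) and 0.41 for Inha (SE 0.08, adjusted p = 0.303). It was 0.62 for Hsd17b1 (SE 0.14, adjusted p = 0.336), 0.36 for Gja1 (SE 0.07, adjusted p = 0.306) and 0.30 for Fshr (SE 0.10, adjusted p = 0.497). With 1 mouse left out at a time the slope stayed between 0.73 and 0.89 for Inhba, 0.61 and 0.67 for Inhbb, 0.34 and 0.49 for Inha, 0.47 and 0.75 for Hsd17b1, 0.33 and 0.41 for Gja1 and 0.19 and 0.38 for Fshr. Without both control_10.6 and control_15.4, whose ovaries differed most in Cyp19a1, the slopes were 0.60, 0.70, 0.28, 0.42, 0.33 and 0.16 in that order.

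**Figure D4:**
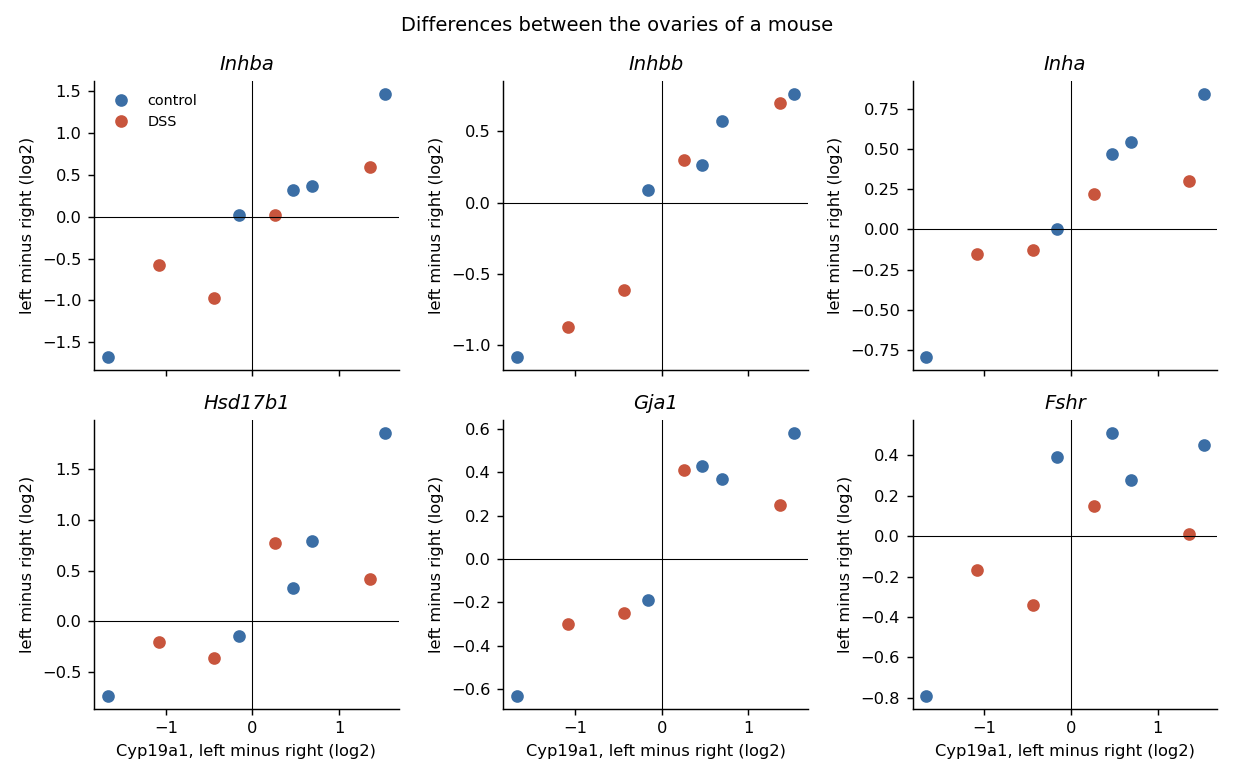
Left minus right log2 difference of Inhba, Inhbb, Inha, Hsd17b1, Gja1 and Fshr (vertical axes) against that of Cyp19a1 (horizontal axes) in 9 mice, 1 point per mouse, coloured by treatment. Points at the lower left and upper right are mice in which the gene was higher on the side with more Cyp19a1, as in 9 of 9 mice for Hsd17b1 and Gja1 and 8 of 9 for the others. The share of all genes that did so was not counted.

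Averages of both ovaries gave another picture. When the mean log2 level of a mouse's ovaries was fitted on its mean log2 Cyp19a1 over the same 9 mice, 0 genes passed in limma (0.0%), with 767 (5.32%) at an unadjusted p under 0.05. The slopes were 0.22 for Inhba (SE 0.18), 0.04 for Inhbb (SE 0.14), -0.03 for Inha (SE 0.06), -0.07 for Hsd17b1 (SE 0.09), 0.02 for Gja1 (SE 0.06) and 0.05 for Fshr (SE 0.20), each at an adjusted p of at least 0.927. Whether these slopes differ from those within a mouse was not tested.

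Last, the genes of an ovary were fitted on Cyp19a1 of the other ovary of the same mouse, a level measured in another library. None of 14432 genes passed in limma (0.0%), with 1040 (7.21%) at an unadjusted p under 0.05. The smallest p belonged to Nap1l5 (slope -0.37, SE 0.07), Sh3d21 (-0.51, SE 0.10) and Apoc3 (-0.44, SE 0.08), lower where the other ovary had more Cyp19a1 and each at an adjusted p of 0.118, and to Scx (0.47, SE 0.11), Ybey (0.33, SE 0.08) and Zfp251 (0.33, SE 0.08), higher and each at 0.364. Cyp19a1 had a slope of -0.06 (SE 0.21) on its own level in the other ovary. Fst was at -0.31 (SE 0.06, adjusted p = 0.164), Inha at -0.23 (SE 0.06, adjusted p = 0.364) and Inhba at -0.32 (SE 0.15, adjusted p = 0.677). Both ovaries of each mouse entered this fit, so a gene that follows Cyp19a1 of its own ovary within a mouse pulls its slope here toward the opposite sign by construction. For Fst the slope was 0.24 (SE 0.08) on left minus right differences. On mouse averages that of Fst was -0.38 (SE 0.09, limma adjusted p = 0.915).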

How the data were processed

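The deposited table holds a signal per gene and ovary for 50600 genes, counts that the authors divided by 1 size factor per library. Per the labels' protocols, libraries were made by CEL-Seq, which tags 3′ ends, with a pool of 3 primers per ovary, and the tools named in the submitters' processing notes are TopHat, HTSeq and DESeq2, with build GRCm38.p5. Versions, the strand setting and the handling of molecular identifiers are not given in the sources used here, so overlapping genes are uncertain. Dividing by each library's smallest step returned whole reads for 99.99% to 100% of values above 0, within 0.0051 normalized counts (in 3 libraries the step is near 1). Reads per library were 3095386 to 8564770.

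The classes were compared with limma 3.58.1 (R 4.3.3; trend, two-sided) on log2(normalized count + 1), which understates changes of low genes, where a gene's mean over the 23 libraries at or below the Ovgp1 limit reached 5. The mouse was a replicate block through duplicateCorrelation (consensus correlation 0.207), since both ovaries come from 1 animal. Cyp19a1 and Ovgp1 were left out of this test, Benjamini-Hochberg adjustment ran over all genes, and the threshold was 0.05. edgeR 4.0.16 and DESeq2 1.42.0 were run on the recovered reads summed per mouse and class and called 0 and 9 genes.

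Members and gene lists were chosen with earlier results of these data known. Named genes are those with the smallest p (up to 5 per direction where none passed), a set of follicle genes and the 2 to 4 list members with the smallest p. Some genes that the rule named are not reported here. Gene positions are printed as deposited, strands and overlaps come from GENCODE M21, and the promoter windows are RefSeq's.

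On simulated data with 50 genes changed at each size among 14430, limma found 6% of the genes changed 1.25-fold between classes, 50% of those changed 1.5-fold, 68% of those changed 2-fold and 94% of those changed 4-fold, and made 2 false calls, beside 4 with edgeR and 9 with DESeq2. For the opposite ovary slope, where the same folds are per log2 unit of Cyp19a1, it found 34%, 76%, 90% and 100%, and made 8 false calls. These shares are therefore not comparable with those of the classes, where a fold is the whole difference. With fewer changed genes smaller shares would be recovered. Alternatives changed the block, the pseudocount, the filter, the scaling, the tool, the covariates and the samples. The slopes on left minus right differences and on mouse averages were added after the data were seen.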

Additional observations from a re-analysis of the deposited data

Results flagged for a closer look

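Groups of libraries were screened for a part of the 67 named genes, 64 groups in all. Of these, 6 held a library set apart from the rest of its class by a gap that is large beside the class's range. Chance alone gives about 1 in 20. In the low class, the left ovary of DSS_10.3 was at 125 normalized counts of Klhl31 beside a class median of 82.2, the left ovary of control_15.3 was at 2603 of Amh beside 1448, and the right ovary of control_10.6 was at 71.0 of Fst beside 116. In the high class, the left ovary of control_10.6 had the lowest Chchd10, 727 beside a median of 827, and the lowest Abca2, 104 beside 130, and the left ovary of control_13.4 had the lowest Inha, 10857 beside 14809. With 1 mouse left out at a time the log2 difference of Klhl31 lay between 0.56 and 0.70, with a limma adjusted p between 0.0321 (without DSS_10.3) and 0.874.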

How the results depend on the processing

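For the class comparison, 0 genes passed with limma without the replicate block, with mouse means, at pseudocounts of 0.5 and 5, at filters of 1 and 20 and with no filter, with TMM or quantile scaling, with oviduct and fat covariates, with continuous Cyp19a1, with Ovgp1-rich libraries kept, in control mice, in left or right ovaries, and for left minus right differences and mouse averages. edgeR called 0 and DESeq2 9, treatment and side covariates gave 3, and DSS mice alone, with 1 high library, 14. With 1 mouse left out at a time the count lay between 0 and 2 (1 without control_11.4, Inhba, and 2 without DSS_10.3, Inhba and Klhl31). For the opposite ovary it lay between 0 and 1 (Nap1l5, without DSS_15.1), and was 0 over all 15 mice, with treatment as a covariate, without the replicate block, at a pseudocount of 5 and at a filter of 20. Depth limits the low genes: the high class holds 177 reads of Fshr and 82 of Ccne1 in all.

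Only 3 mice had both ovaries in the classes. Of these, control_10.6 had an ovary in each class, and control_11.4 and control_15.3 had both in the low class. The class comparison is thus mostly between animals, and the block for the mouse changed no call. Of 67 named genes, 41 kept their sign under all 33 alternatives and 26 did not. The cause was not tested. Their log2 values (slopes for continuous Cyp19a1, left minus right differences and mouse averages) after the change of sign follow.
For mouse averages, Hsd17b1 was at -0.07, Esr2 at -0.04, Inha at -0.03, Amh at 0.02, Star at 0.27, Pgr at -0.11, Zp3 at -0.04, Mki67 at -0.03, Ccnd2 at -0.14, Parm1 at 0.08, Cd36 at -0.05, Ccne2 at -0.02 and Apln at 0.26. In DSS mice, Hsd17b1 was at -0.34, Lhcgr at -0.86, Nr5a2 at 0.02, Amh at 0.31, Amhr2 at -0.01, Cyp11a1 at -0.36, Ptgfr at -0.43, Gdf9 at -0.05, Zp3 at -0.08, Ccne1 at -0.47 and Pgrmc2 at 0.03. With mouse means, Lhcgr was at -0.13, Cyp11a1 at -0.03 and Ptgfr at -0.09. With no filter, Lhcgr was at -0.0018 and Cyp11a1 at -0.0023. With edgeR, Lhcgr was at -0.20, Cyp11a1 at -0.03 and Ptgfr at -0.08. With DESeq2, Lhcgr was at -0.20, Cyp11a1 at -0.03 and Ptgfr at -0.08. With continuous Cyp19a1, Lhcgr was at -0.02 and Cyp11a1 at -0.02. For left minus right differences, Lhcgr was at -0.37, Nr5a2 at 0.05, Foxl2 at -0.02, Fst at 0.24, Cyp11a1 at -0.19, Pgr at -0.03, Akr1c18 at -0.14 and Ptgfr at -0.37. In right ovaries, Lhcgr was at -0.54, Nr5a2 at 0.08, Amh at 0.28, Cyp11a1 at -0.33 and Ptgfr at -0.23. With treatment and side covariates, Nr5a2 was at 0.02 and Cyp11a1 at -0.04. With Ovgp1-rich libraries kept, Nr5a2 was at 0.13, Fst at 0.18, Amh at 0.07, Star at 0.17, Pgr at -0.26, Ccnd2 at -0.01 and Srd5a1 at 0.02. In left ovaries, Esr2 was at -0.08, Amhr2 at -0.04, Star at 0.15, Pgr at -0.06, Gdf9 at -0.01, Zp3 at -0.08, Mki67 at -0.004, Ccnd2 at -0.12 and Mgarp at 0.06. With oviduct and fat covariates, Amh was at 0.03, Ptgfr at -0.05 and Srd5a1 at 0.02. With quantile scaling, Cyp11a1 was at -0.02. In control mice, Mki67 was at -0.01 and Ccnd2 at -0.05. Without the replicate block, Ccnd2 was at -0.02. With a filter of 1, Ccnd2 was at -0.0007. With 1 mouse left out at a time, Lhcgr lay between -0.46 and 0.13, Amh between -0.13 and 0.06, Cyp11a1 between -0.15 and 0.09, Pgr between -0.06 and 0.37, Ptgfr between -0.27 and 0.20, Ccnd2 between -0.05 and 0.06 and Srd5a1 between -0.12 and 0.02.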

Other observations

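In DSS mice alone, 1 high library (the right ovary of DSS_10.4) met 4 low ones. Because the high side has no spread of its own, the values compare that library with the low ones and are given without p-values. The genes below were picked by limma in that same fit. The 8 higher genes among the 14 that limma listed (0.097% of 14430) were Cyp17a1 (log2 2.62), Scd1 (2.30), Iigp1 (2.21), Gbp4 (1.94), Igtp (1.91), AW112010 (1.89), Ifi47 (1.71) and Gbp7 (1.27), and Lhcgr was among the 6 lower ones at -0.86.

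With treatment and side as covariates, limma called 3 genes (0.0208%), all lower in the high class: Trp53inp2, which takes part in autophagy (log2 -0.56, adjusted p = 0.0262), the haem oxygenase Hmox1 (-0.55, adjusted p = 0.0415) and the metallothionein Mt1 (-0.50, adjusted p = 0.0415).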
